A study of Bos taurus with 16 samples.

Results

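Amino acid, peptide and monocarboxylate transporters were followed after parturition in 4 fertile cows, in biopsies of the endometrium, which lines the uterus. The genes were chosen by name alone, as every gene of the array design named as a member of the solute carrier (SLC) families SLC1, SLC3, SLC6, SLC7, SLC15, SLC16, SLC36, SLC38 or SLC43. This gave 69 genes with 138 probes, of 25325 gene names and 43653 probes in all. Tissue pieces were taken from the uterine horns of the same animals with biopsy forceps at nominal days 10, 30, 50 and 100, and each was hybridised to 1 array, so that 16 arrays were compared. True sampling days ran from 9 to 10, from 29 to 30, from 49 to 51 and from 99 to 100. No treatment or genotype is given in the labels, and the biopsies of a cow differ only in time since parturition as far as the labels state.

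Transporters of these families move amino acids, small peptides, lactate and pyruvate across cell membranes. In ruminants the endometrial epithelium passes amino acids into the uterine fluid that feeds the early conceptus, and the same families supply immune and stromal cells that are dividing or repairing tissue. Several members work as pairs, in which a heavy chain of the SLC3 family carries a light chain of the SLC7 family to the cell surface. The lactate transporters SLC16A1 and SLC16A3 need the chaperone basigin.

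A level is the log2 processed signal of a probe relative to the percentile 75 of its array, and a gene was represented by its tested probe with the highest mean signal. Where 4 values are given for a time they are those of cows 1, 2, 3 and 4 in that order, and levels of different probes were not compared with each other. A probe was tested if it was well above background on at least 4 arrays, which held for 52 of the 69 genes (103 probes), against 18979 genes of the whole array. Of the 17 genes not tested, 8 were above background on no array, among them SLC7A1, a cationic amino acid transporter, and SLC16A4. SLC7A2 was above background on 3 arrays, SLC7A9, SLC16A6 and SLC36A3 on 2, and SLC3A1, SLC6A5, SLC6A17, SLC7A11 and SLC7A14 on 1.

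The biopsies differed in make-up. The level of a marker list is the mean over its genes of the log2 level minus that gene's mean over the 16 arrays. At day 100 the epithelial list was 2.76 in cow 1 and -3.27 in cow 2, and the smooth muscle list was -3.70 in cow 1 and 2.26 in cow 2. The epithelial list was also low in cow 2 at day 10 (-2.65) and in cow 4 at day 30 (-1.96). Cows 1 and 4 had a neutrophil list of 5.0 and 4.72 at day 10, while none of the other 14 arrays exceeded 1.47. Of 16 macrophage markers, 9 fell at day 30, 9 at day 50 and 16 at day 100, each against day 10 (limma adjusted p under 0.05). Of the neutrophil markers, 1, 2 and 1 of the 7 tested fell in those comparisons. Calls in either direction made up 0.432%, 1.94% and 4.77% of all genes there. At day 100 against day 10, 1 of 11 ciliated epithelium markers rose, 1 of 12 stromal fibroblast and 2 of 16 T and NK cell markers fell, and of 4 erythroid markers 1 rose and 1 fell. None of the epithelial (19), smooth muscle (13), endothelial (15) or B and plasma cell (7) markers tested passed against day 10. The epithelial genes EPCAM and CDH1 were above background on all 16 arrays, as were the smooth muscle genes MYH11 and DES. In such samples fewer cells of a type and less RNA per cell cannot be told apart. Median processed signals lay between 51.04 and 154 per array. They were lowest in cow 3 (51.04) and cow 2 (54.75) at day 100, and next in cow 4 at day 30 (79.15). The part of signal strength in the levels of those arrays was not tested. The 4 arrays of a cow shared a slide on which the position followed the order of the days, so that position and time cannot be told apart.

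Few of the transporters passed the test, and those that did changed between day 10 and the later days. At day 50 against day 10, 3 of the 52 genes passed, beside 1.94% of all genes called in that comparison. Of these 2 rose, beside 0.764% of all genes called higher, and 1 fell, beside 1.18% called lower. At day 100 against day 10, 1 transporter rose, beside 1.86% of all genes called higher, and none fell. All calls in either direction made up 4.77% of all genes there. No transporter passed at day 30 against day 10 (0.432% of all genes called), where 7 had an unadjusted p under 0.05 (13.5%, with 14.6% of all genes). Nor did any pass at day 50 against day 30, at day 100 against day 30 or at day 100 against day 50, where no gene of the array was called, and 10, 9 and 0 transporters had an unadjusted p under 0.05 (19.2%, 17.3% and 0%, with 9.63%, 13.0% and 2.62% of all genes). Unadjusted p was under 0.05 for 19 transporters at day 50 against day 10 (36.5%, with 19.8% of all genes) and for 16 at day 100 against day 10 (30.8%, with 25.9% of all genes). The F test over the 4 times called 1 transporter, beside 1.07% of all genes. Whether these shares differ from those of the other genes was not tested.

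The median log2 difference of the 52 genes was -0.25 at day 50 against day 10, where the median over all genes was -0.01, and 31 of the 52 differences were negative. At day 100 against day 10 the median was -0.21 for the transporters and 0.02 for all genes. Differences of both signs were thus frequent. Without any test, the 4 values at day 50 lay wholly above or wholly below the 4 values at day 10 in 15 of the 52 genes, 10 above and 5 below, beside 17.3% of all genes. At day 100 against day 10 this held for 3 genes, beside 11.1% of all genes.

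**Figure D1:**
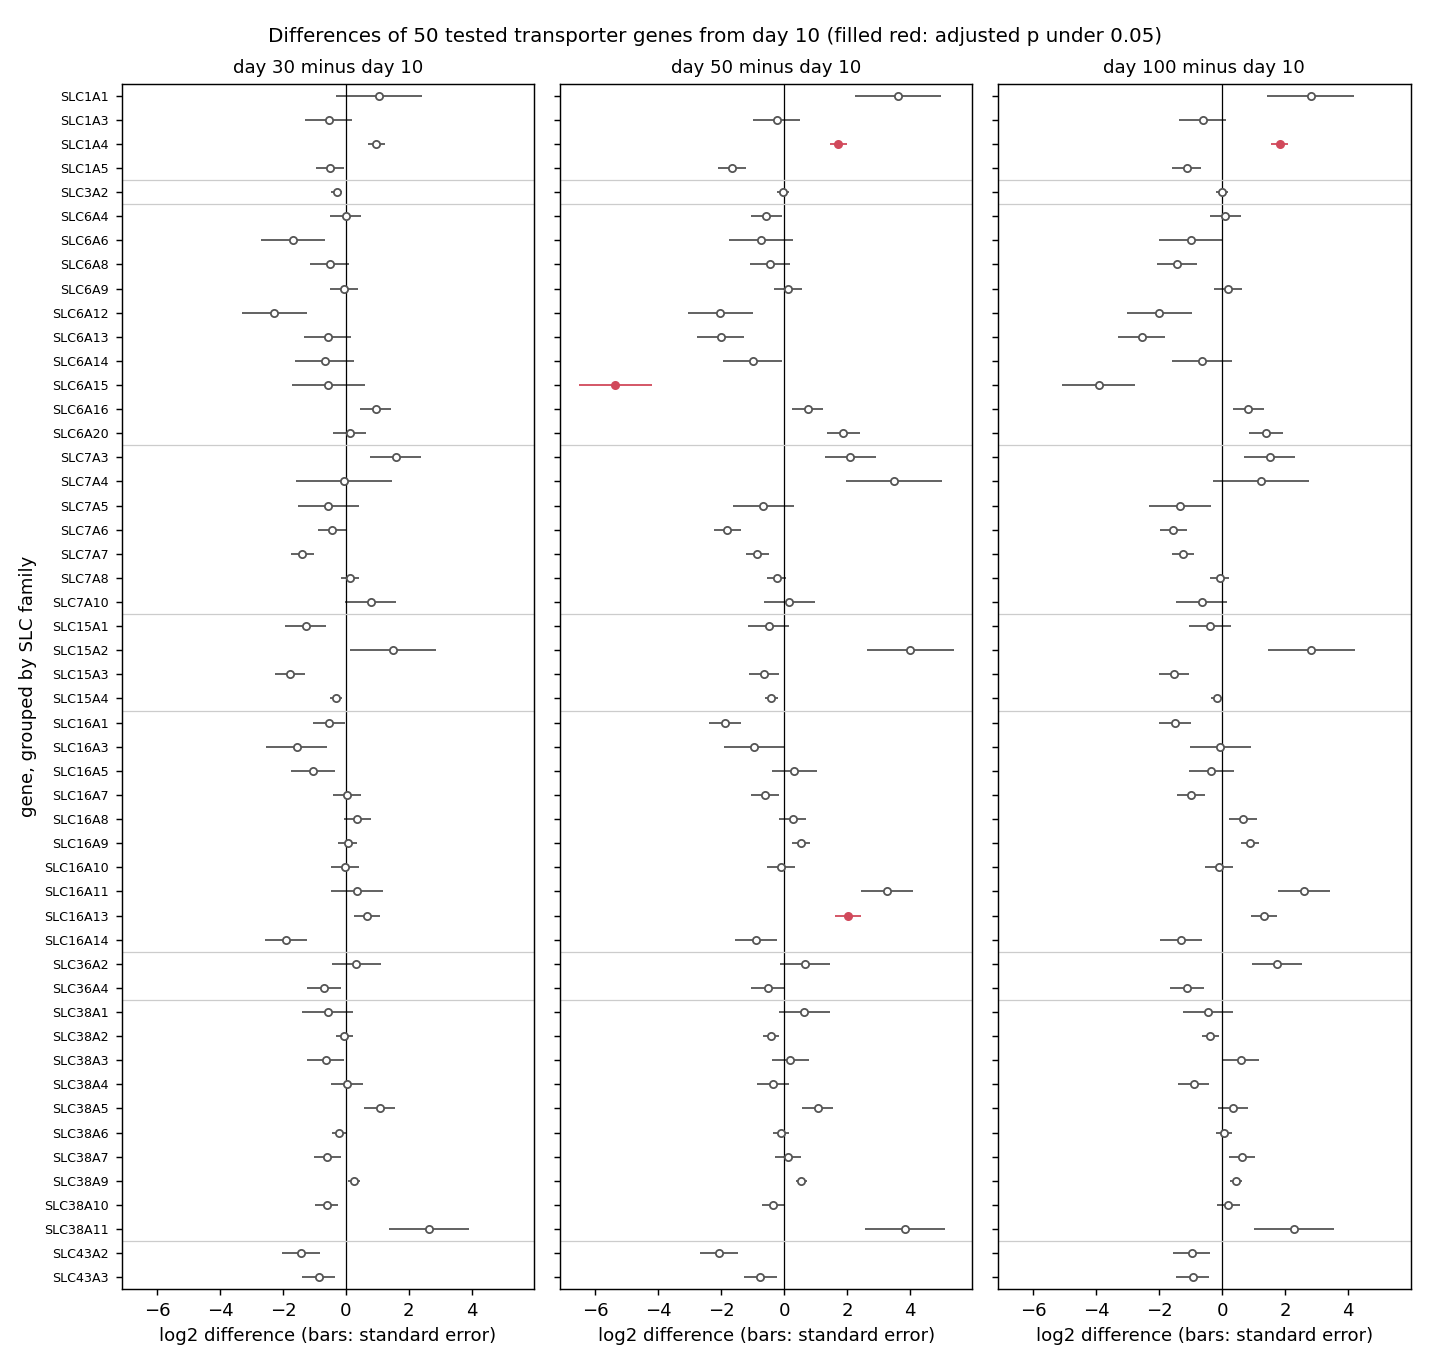
Log2 differences of 50 of the 52 tested transporter genes from day 10 (x axis), with 1 gene per row grouped by SLC family, at day 30, day 50 and day 100. Points are estimates over 4 cows, bars are standard errors, and filled red points have an adjusted p under 0.05. SLC1A4 at 1.73 and SLC16A13 at 2.03 are the filled points right of 0 at day 50, SLC6A15 at -5.36 is the one left of it, and SLC1A4 at 1.83 is the only one at day 100.

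In the SLC1 family 4 of 6 genes were tested, and SLC1A4, which exchanges alanine, serine, cysteine and threonine, rose. It is shown with a pair of its probes because the change was read by more than one sequence. The designed probes, 5′ to 3′ and in lower case throughout with no part marked, were on the plus strand of chromosome 11 of build HGSC Btau_3.1, at chr11:65191082-65191141 for the first and chr11:65189584-65189643 for the second.
SLC1A4 probe at 65191082: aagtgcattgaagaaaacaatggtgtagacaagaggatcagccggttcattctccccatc
SLC1A4 probe at 65189584: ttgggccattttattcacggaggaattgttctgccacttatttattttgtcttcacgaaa
The probe with the highest signal lay further along the same strand, at 65196453 to 65196512.

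SLC1A4 stood at -0.75, 0.20, -0.14 and -0.31 at day 10, at 0.60, 0.29, 0.92 and 1.07 at day 30, at 1.76, 1.48, 1.02 and 1.63 at day 50 and at 1.45, 1.23, 1.84 and 1.81 at day 100. All 4 cows were higher at days 30, 50 and 100 than at day 10, and the values of each later day lay above every value of day 10. The mean level was 1.47 ± 0.32 at day 50 and -0.25 ± 0.40 at day 10 (SD, n = 4), a log2 difference of 1.73 ± 0.27 (SE, limma adjusted p = 0.0185) and 3.31-fold. At day 100 it was 1.58 ± 0.29 (SD, n = 4), higher than at day 10 by 1.83 ± 0.27 (SE, adjusted p = 0.00845) or 3.56-fold. SLC1A4 was also the gene called by the F test (adjusted p = 0.0255).

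The rise was read by the printed probe at 65191082 as well, with log2 differences of 1.72 ± 0.27 at day 50 (SE, adjusted p = 0.0177) and 1.33 ± 0.27 at day 100 (SE, adjusted p = 0.0227), although it was above background on 1 of 4 arrays at day 10. The printed probe at 65189584 gave 1.92 ± 0.52 at day 50 (SE, adjusted p = 0.0862) and did not pass. With a term for the tissue make-up of each biopsy, the epithelial minus the smooth muscle list level, the differences of SLC1A4 were 1.79 at day 50 and 1.88 at day 100, as large as without it. This term holds no macrophage or neutrophil markers, and the part of those cells in the SLC1A4 values was not tested. The call at day 50 was lost without cow 1, 3 or 4 (adjusted p from 0.0848 to 0.156), without any of 4 single arrays (cows 1 and 4 at day 10, cows 1 and 2 at day 50), and when only the 8 arrays of those days were fitted (adjusted p = 0.0537). The call at day 100 was lost without cow 1, 3 or 4 (adjusted p from 0.0667 to 0.0683) and when only the 8 arrays of those days were fitted (adjusted p = 0.124).

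SLC1A1, a high-affinity glutamate and aspartate transporter, did not pass but moved over the widest range of the family. Its levels were 0.40, -2.07, -0.90 and 0.80 at day 10, 1.24, 1.92, 0.96 and -1.67 at day 30, 3.74, 3.66, 3.75 and 1.57 at day 50 and 4.83, -3.06, 3.89 and 3.81 at day 100. Every cow was higher at day 50 than at day 10 and the groups did not overlap, while at day 100 cow 2 was the lowest of the 16 arrays and cow 1 the highest. The difference was 3.62 ± 1.38 at day 50 and 2.81 ± 1.38 at day 100 against day 10 (SE, adjusted p = 0.191 and 0.224). The low arrays, cow 2 at day 100, cow 2 at day 10 and cow 4 at day 30, were those with the lowest epithelial list. Without the day 100 arrays of cows 1 and 2, SLC1A1 passed at day 50 (adjusted p = 0.0452) and at day 100 (log2 difference 4.66, adjusted p = 0.0424). Without that of cow 2 alone it passed as well (adjusted p = 0.0402 at day 50 and 0.0144 at day 100). The day 50 difference stayed at 3.62 in both settings, and its standard error was 0.84 and 0.79.

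A probe of SLC1A1 that spans 6181 bases on the minus strand, at chr8:42136999-42143179, is shown because it gave the same picture as the representative probe at 42132733 to 42132792.
SLC1A1 probe at 42136999: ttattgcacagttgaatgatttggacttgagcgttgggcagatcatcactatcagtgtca
Its level was 1.18, -8.24, -1.01 and -0.93 at day 100, and -3.81, -6.35, -6.04 and -4.61 at day 10. Cow 2 was again far below the other cows at day 100.

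SLC1A5, a sodium-dependent exchanger of glutamine and other neutral amino acids, was lower in all 4 cows at day 50 than at day 10 and did not pass. It was at -0.86, 0.16, -1.0 and -1.09 at day 50 and at 0.82, 1.42, 1.52 and 0.04 at day 10, a difference of -1.65 ± 0.45 (SE, adjusted p = 0.0899). At day 100 cow 1 was at 1.17, higher than at day 10, and the other cows were at 0.51, -0.79 and -1.61. SLC1A5 passed at day 50 (adjusted p = 0.0250) and at day 100 (adjusted p = 0.0268) when the day 100 array of cow 1 was left out. SLC1A3, a glial-type glutamate transporter, ranged from -3.47 to 0.63 over the 16 arrays and its smallest adjusted p against day 10 was 0.622, at day 100.

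**Figure D2:**
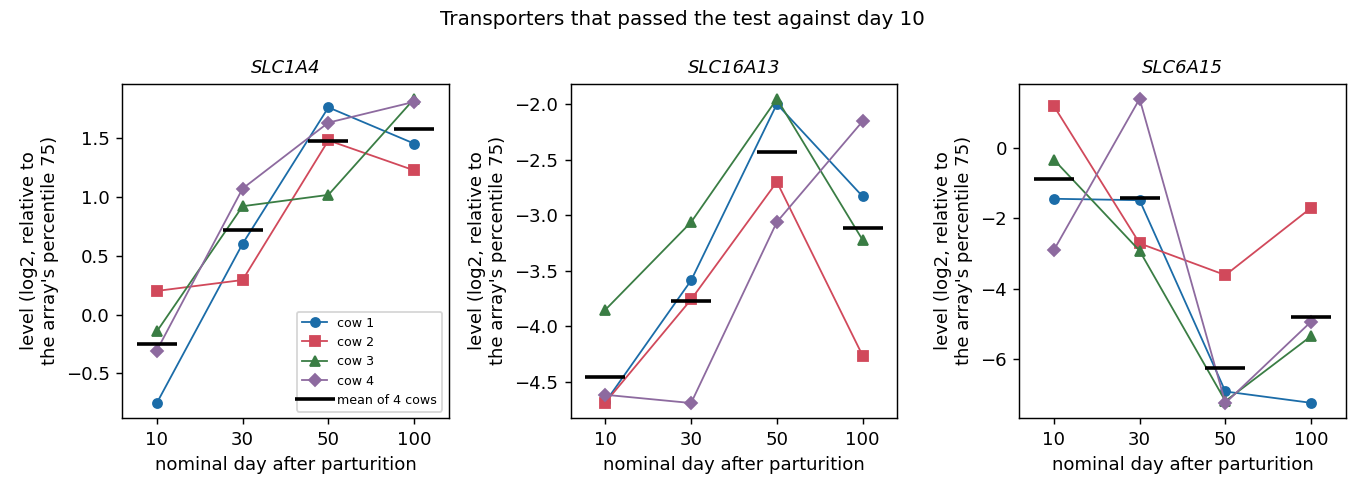
Levels of SLC1A4, SLC16A13 and SLC6A15 (y axis, log2 relative to the array's percentile 75) at nominal days 10, 30, 50 and 100 (x axis), with 1 line per cow and black bars for the mean of 4 cows. SLC1A4 lies between 1.23 and 1.84 at day 100 and between -0.75 and 0.20 at day 10, while SLC6A15 reaches -7.24 in cow 4 at day 50.

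The heavy chain SLC3A2, the shared partner of most light chains of the SLC7 family, hardly moved. It lay between 1.62 and 2.27 at day 10, between 1.59 and 1.90 at day 30, between 1.83 and 2.34 at day 50 and between 1.73 and 2.37 at day 100. Its difference from day 10 was -0.02 ± 0.19 at day 50 and 0.00 ± 0.19 at day 100 (SE, n = 4 cows). The other heavy chain, SLC3A1, was not tested.

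Of 13 SLC7 genes 7 were tested, and none passed. SLC7A5, which exchanges large neutral amino acids such as leucine, spread widely among the cows within a time. Its levels were 3.04, 0.49, 1.66 and 2.79 at day 10, -0.30, 3.39, 3.01 and -0.33 at day 30, 1.11, 0.19, 0.77 and 3.28 at day 50 and 0.17, 0.61, 0.74 and 1.09 at day 100. High values were in cows 1 and 4 at day 10, in cows 2 and 3 at day 30 and in cow 4 at day 50. At day 100 all 4 values were low. The difference was -1.34 ± 0.98 at day 100 against day 10 (SE, adjusted p = 0.402). Of the 3 SLC7A5 probes, those other than the representative correlated with it at 0.97 and 0.81 over 16 arrays that share animals.

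A probe of SLC7A5 on the minus strand, at chr18:12570135-12570194, is shown because the cows that read high and low by the representative probe changed places between days 10 and 30. The probe shown is the one that correlated with the representative at 0.81.
SLC7A5 probe at 12570135: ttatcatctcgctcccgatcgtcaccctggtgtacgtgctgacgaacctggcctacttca

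SLC7A6, a light chain that exchanges cationic for neutral amino acids, was lower at day 50 in all 4 cows, at -5.13, -4.91, -4.54 and -4.25, against -4.18, -1.72, -2.02 and -3.70 at day 10. The values of day 50 lay wholly under those of day 10. The difference was -1.80 ± 0.43 at day 50 and -1.56 ± 0.43 at day 100 against day 10 (SE, adjusted p = 0.0632 and 0.0625). With the term for tissue make-up it passed in both comparisons, at -1.59 (adjusted p = 0.0431) and -1.39 (adjusted p = 0.0453). It also passed at day 100 without the day 10 array of cow 4 (adjusted p = 0.0460).

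SLC7A7, another such light chain that is also made by macrophages, was chosen for mention after its values were seen. It stood at 0.30, -0.24, 1.70 and 0.88 at day 30, 1.27, 0.35, 1.83 and 1.33 at day 50 and -0.12, 0.49, 1.87 and 0.93 at day 100, against 2.53, 1.07, 1.91 and 2.65 at day 10. All 4 cows were lower at each later day, by 1.38 ± 0.36 at day 30, 0.85 ± 0.36 at day 50 and 1.25 ± 0.36 at day 100 on the log2 scale (SE), and none of these passed (adjusted p = 0.123, 0.236 and 0.0664). At day 100 it passed without the day 10 array of cow 3 (adjusted p = 0.0446) or the day 100 array of cow 2 (adjusted p = 0.0438). The macrophage list was at most 0.93 on every later array, against 1.87, 0.78, 1.54 and 2.56 at day 10. Its part in the values of SLC7A7 was not tested.

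SLC7A4, an orphan relative of the cationic amino acid transporters, was also chosen after its values were seen. Like SLC1A1, it was low in cow 2 at days 10 and 100 and in cow 4 at day 30. It read -2.52, -7.07, -5.63 and -2.79 at day 10, -2.16, -3.88, -3.0 and -9.21 at day 30, -0.11, -1.19, -1.16 and -1.60 at day 50 and -0.66, -7.55, -4.11 and -0.81 at day 100. Cow 2 was lowest at days 10 and 100 and cow 4 at days 30 and 50, and the values of day 50 lay wholly above those of days 10 and 30. In cow 3 at day 100 SLC7A4 was far under cows 1 and 4, which SLC1A1 was not. The difference of SLC7A4 at day 50 against day 10 was 3.49 ± 1.52 (SE, adjusted p = 0.249), and it passed under normexp background correction (2.21, adjusted p = 0.0338). SLC7A3, a cationic amino acid transporter that was above background on 2 arrays at day 100 and 2 at day 10, ranged from -8.33 to -3.26 over the 16 arrays and did not pass, with a difference of 1.51 ± 0.81 at day 100 against day 10 (SE, adjusted p = 0.261). Under normexp background correction SLC7A3 passed at day 100 (1.15, adjusted p = 0.0497).

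SLC7A8, a light chain that carries neutral amino acids out of epithelial cells, stayed between -6.95 and -5.92 on all 16 arrays and was above background on 10 of them. SLC7A9, the light chain of cystine and dibasic amino acid uptake, was not tested, and it too was chosen after its values were seen. It was well above background on 2 arrays, cows 1 and 4 at day 10, where it read -0.60 and -2.25, and lay at or under -7.10 on the other 14 arrays. Those 2 arrays were the ones with the highest neutrophil list. The part of neutrophils in this signal was not tested.

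In the SLC6 family, which couples transport to sodium and chloride, 11 of 16 genes were tested and SLC6A15 fell. It carries branched-chain amino acids and proline, and is best known from brain. Its levels were -1.45, 1.19, -0.34 and -2.91 at day 10, -1.49, -2.71, -2.92 and 1.39 at day 30, -6.91, -3.61, -7.19 and -7.24 at day 50 and -7.24, -1.70, -5.34 and -4.93 at day 100. Every value of day 50 lay under every value of days 10 and 30, and only the array of cow 2 was still well above background at day 50. The log2 difference at day 50 against day 10 was -5.36 ± 1.17 (SE, adjusted p = 0.0471), and at day 100 it was -3.93 ± 1.17 (SE, adjusted p = 0.0712).

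The other tested probe of SLC6A15 was well above background on all 4 arrays at day 10 and on none at day 50, where the signal was at least 5.87-fold lower (adjusted p = 0.0462). Such a bound sets the mean of the bright day against the lowest signal that counted as above background. The highest SLC6A15 values of days 30, 50 and 100 were in cow 4, cow 2 and cow 2, the arrays at those times with an epithelial list of -1.96, 0.59 and -3.27. With the term for tissue make-up the difference at day 50 was -4.60 ± 0.76 (SE, adjusted p = 0.0148) and the difference at day 100 passed (-3.33, adjusted p = 0.0278). Without any 1 of the 4 cows the call at day 50 was lost (adjusted p from 0.0655 to 0.246), as it was without the replicate block (adjusted p = 0.0575), with no filter on dim probes (adjusted p = 0.0542) and under normexp background correction, where the difference was -2.87 (adjusted p = 0.107). It was also lost without any of 12 single arrays (adjusted p from 0.0547 to 0.142), the 8 arrays of days 10 and 50, those of cows 1 and 3 at day 30 and those of cows 3 and 4 at day 100. The day 100 difference of SLC6A15 passed without the day 30 array of cow 2 (adjusted p = 0.0385) or cow 4 (adjusted p = 0.0299) or the day 100 array of cow 2 (adjusted p = 0.0479).

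SLC6A14, an epithelial transporter of neutral and cationic amino acids, spread widely at day 10. It was at 0.01, -3.09, -5.45 and 0.44 at day 10, at -2.33, -3.75, -2.89 and -1.82 at day 30, at -2.85, -2.72, -2.94 and -3.59 at day 50 and at -1.25, -4.0, -2.25 and -3.16 at day 100. Cows 1 and 4 at day 10 were the highest of the 16 arrays for SLC6A14 and for the neutrophil list, whose part in these values was not tested. The difference at day 50 against day 10 was -1.0 ± 0.94 (SE, adjusted p = 0.612), with 2 cows higher and 2 lower. SLC6A6, the taurine transporter, was above background on 5 arrays and read -4.45 and -5.13 in cows 1 and 4 at day 10, -4.88 in cow 4 at day 50 and -4.57 in cow 1 at day 100.

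A probe of SLC6A14, which the array file places on no chromosome, is shown for a gene with a split between cows at day 10.
SLC6A14 probe, unmapped: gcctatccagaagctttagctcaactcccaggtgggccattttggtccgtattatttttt

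SLC6A13, a GABA and taurine transporter named here after its values were seen, gave different calls by probe. Its representative probe had a difference of -2.56 ± 0.74 at day 100 against day 10 (SE, adjusted p = 0.0684). The other probe had -1.56 ± 0.25 (SE, adjusted p = 0.0109), was above background on 3 arrays at day 10 and none at day 100, and gave a bound of at least 1.15-fold lower. SLC6A20, which carries proline, was higher in all 4 cows at day 50, at -2.46, -3.38, -2.93 and -0.44 against -3.05, -5.01, -4.33 and -4.38 at day 10, and did not pass (adjusted p = 0.0943). It was likewise chosen after its values were seen. The name SLC6A9, a glycine transporter, covers probes to different transcripts, since the accession of some of them leads to another gene of the reference table and a pair with different accessions shares a run of 50 bases. No probe of that name was called. SLC6A4, SLC6A8, SLC6A12 and SLC6A16 did not pass either. SLC6A8, the creatine transporter, was lower by 1.43 ± 0.62 at day 100 than at day 10 on the log2 scale (SE, adjusted p = 0.177), and SLC6A4, the serotonin transporter, was within 0.56 of day 10 at each later day.

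All 10 genes of the SLC38 family, sodium-coupled carriers of glutamine and other neutral amino acids, were tested and none passed. SLC38A2, known to be induced when amino acids run short, was high and even, between 2.96 and 3.43 at day 10, 2.81 and 3.41 at day 30, 2.50 and 2.97 at day 50 and 2.31 and 3.57 at day 100. SLC38A9, a lysosomal member that reports arginine to the growth regulator mTORC1, had the smallest F test p of the family. It was at -1.24, -1.70, -0.93 and -1.51 at day 50 and -1.74, -1.94, -1.87 and -2.05 at day 10, a difference of 0.55 ± 0.18 (SE, adjusted p = 0.139), with no overlap by its representative probe. The other tested SLC38A9 probes correlated with that probe at 0.49 and 0.80 over the 16 arrays. Log2 differences between days by the probe at 0.49 were up to 1.48 apart from those of the representative. SLC38A1, SLC38A3, SLC38A4, SLC38A5, SLC38A6, SLC38A7 and SLC38A10 had differences from day 10 of no more than 1.07 in size by their representative probes, that of SLC38A5 at days 30 and 50.

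SLC38A11, a less studied member chosen after its values were seen, was above background on no array at day 10, on 3 at day 30, on 4 at day 50 and on 2 at day 100. It was at least 4.84-fold higher at day 50 than at day 10, and the difference did not pass (adjusted p = 0.142). In the SLC36 family of proton-coupled carriers, SLC36A2 was above background on 1 array at day 50 and 3 at day 100 and on none before. It read -5.30, -8.19, -6.14 and -6.56 at day 100 and -7.11, -8.95, -8.86 and -8.24 at day 10, and did not pass (adjusted p = 0.191). SLC36A4, an amino acid carrier of lysosomes and other inner membranes, differed by -1.11 ± 0.54 at day 100 against day 10 (SE, adjusted p = 0.222).

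Both SLC43 genes were tested and neither passed. SLC43A2, which lets large neutral amino acids leave the cell by facilitated diffusion, was lower in all 4 cows at days 30 and 50. Its levels were 0.48, 1.40, 1.54 and 0.50 at day 10, -0.96, -0.37, -0.41 and -0.04 at day 30, -1.05, -0.91, -1.20 and -1.17 at day 50 and 2.23, -0.38, -0.75 and -1.07 at day 100. The values of days 30 and 50 did not overlap those of day 10, whereas cow 1 at day 100 was the highest of all 16 arrays. The difference at day 50 was -2.06 ± 0.59 (SE, adjusted p = 0.0992). Without the day 100 array of cow 1 it passed at day 30 (adjusted p = 0.0438), day 50 (adjusted p = 0.00785) and day 100 (adjusted p = 0.0163), each against day 10. With only the 8 arrays of days 10 and 50 it passed at day 50 (adjusted p = 0.0362). The array of cow 1 at day 100 is the one with the highest epithelial and the lowest smooth muscle list. On that array SLC43A3, the purine base carrier of this family, was at its lowest, -2.67, with the other 15 arrays from -0.95 to 1.01.

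**Figure D3:**
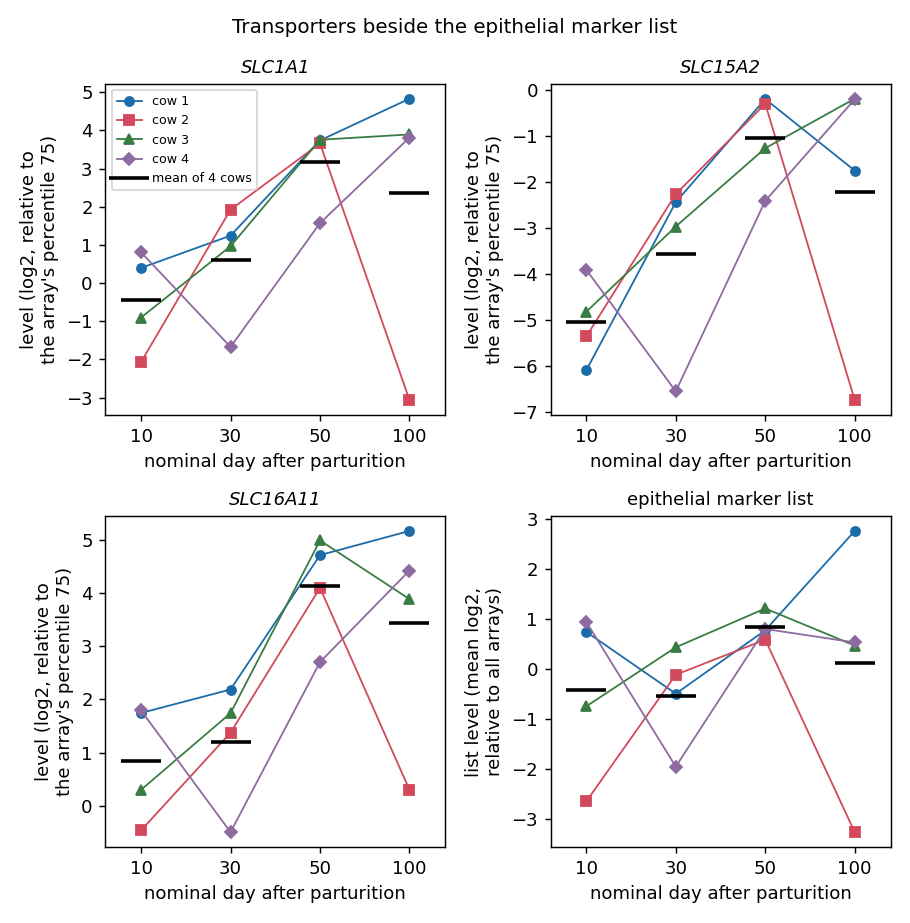
Levels of SLC1A1, SLC15A2 and SLC16A11 (y axis, log2 relative to the array's percentile 75) and of the epithelial marker list (y axis, mean log2 level relative to all arrays) at nominal days 10, 30, 50 and 100 (x axis), with 1 line per cow and black bars for the mean of 4 cows. In all 4 panels cow 2 is lowest at day 100 and cow 4 is lowest at day 30, where SLC15A2 reads -6.75 and -6.56. At day 50 cow 4 is lowest in the panels of the genes and cow 2 in that of the list (0.59). At day 10 cow 1 is lowest for SLC15A2 and cow 2 in the other panels.

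Peptide transporters of the SLC15 family take up di- and tripeptides with protons. All 4 were tested and none passed. SLC15A2, the high-affinity form, read -6.10, -5.36, -4.83 and -3.91 at day 10, -2.44, -2.26, -2.97 and -6.56 at day 30, -0.19, -0.29, -1.26 and -2.41 at day 50 and -1.75, -6.75, -0.18 and -0.19 at day 100. The day 50 values lay wholly above those of day 10, with a difference of 4.01 ± 1.38 (SE, adjusted p = 0.153), while cow 4 at day 30 and cow 2 at day 100 were under every day 10 value. It passed at day 50 (adjusted p = 0.0446) and day 100 (adjusted p = 0.0232) without the day 100 array of cow 2, and under normexp background correction (2.53 at day 50, adjusted p = 0.0367, and 2.54 at day 100, adjusted p = 0.0208). The accession of both SLC15A2 probes leads to a gene of the reference table other than the one named SLC15A2, so the name rests on the array design.

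SLC15A1, the low-affinity form best known from intestine, was highest in cow 4 at day 10 (-0.39), cow 1 at day 100 (-0.87) and cow 1 at day 10 (-1.44). It lay between -5.26 and -2.04 on the other arrays, and its difference from day 10 was within 1.28 at every later day. The arrays with the highest SLC15A1 were also those with the highest neutrophil list, whose part was not tested. SLC15A3, a lysosomal histidine and peptide carrier of immune cells, was read by a dim probe, above background on 1 array at day 30 and 2 at day 10. Its values at day 30, most of them near background, were -7.50, -7.19, -5.63 and -7.83, against -5.02, -6.55, -5.39 and -4.08 at day 10. The difference fitted to these values, -1.78 ± 0.48, did not pass (SE, adjusted p = 0.140). At day 100 SLC15A3 passed with the term for tissue make-up (-1.70, adjusted p = 0.0398) and without the day 30 array of cow 4 (adjusted p = 0.0442). SLC15A4, its endosomal relative, lay between 0.24 and 1.07 on every array.

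A probe of SLC15A1 that spans 617 bases on the minus strand, at chr12:73407497-73408113, is shown as another reading of the gene. It was above background on 6 of the 16 arrays, 1 of them at day 10, and correlated at 0.91 with the representative probe over the 16 arrays, which share animals.
SLC15A1 probe at 73407497: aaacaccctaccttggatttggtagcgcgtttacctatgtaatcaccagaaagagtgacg

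**Figure D4:**
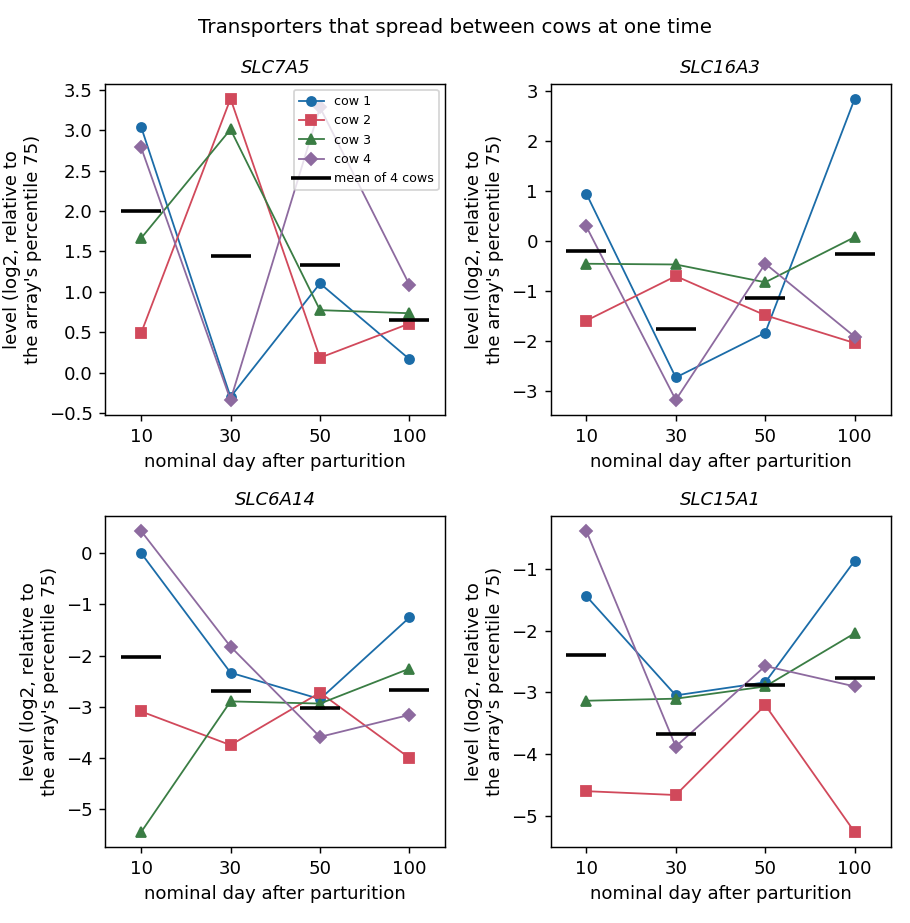
Levels of SLC7A5, SLC16A3, SLC6A14 and SLC15A1 (y axis, log2 relative to the array's percentile 75) at nominal days 10, 30, 50 and 100 (x axis), with 1 line per cow and black bars for the mean of 4 cows. Cows 1 and 4 lie above cows 2 and 3 at day 10 in all 4 panels, and SLC7A5 shows the reverse at day 30, with 3.39 in cow 2 and -0.33 in cow 4.

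Of 13 SLC16 genes, the monocarboxylate transporter family, 11 were tested and SLC16A13 rose. SLC16A13 and its neighbour SLC16A11 are less studied members, and their probes lie 995 bases apart on chromosome 19. The SLC16A13 probe shown spans 213 bases on the plus strand, at chr19:27193855-27194067, and is given because the gene was called by its representative probe, at 27196442 to 27196501, and not by this one.
SLC16A13 probe at 27193855: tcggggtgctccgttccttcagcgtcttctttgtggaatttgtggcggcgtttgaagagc
Its log2 difference was 1.60 ± 0.51 at day 50 against day 10 (SE, adjusted p = 0.132). The third probe of the gene gave 2.73 ± 0.73 (SE, adjusted p = 0.0844).

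By its representative probe SLC16A13 read -4.68, -4.69, -3.85 and -4.62 at day 10, -3.59, -3.76, -3.06 and -4.69 at day 30, -2.0, -2.70, -1.95 and -3.06 at day 50 and -2.83, -4.26, -3.22 and -2.15 at day 100. The 4 values of day 50 lay above all values of day 10 and, for cow 4 only narrowly, above all values of day 30. The difference at day 50 against day 10 was 2.03 ± 0.42 (SE, adjusted p = 0.0395) or 4.09-fold, and at day 100 it was 1.34 ± 0.42 (SE, adjusted p = 0.0809). With the term for tissue make-up the day 50 difference was 1.97 (adjusted p = 0.0355). Under normexp background correction it was 0.95 and did not pass (adjusted p = 0.0971). It was also lost without cow 1, 2 or 3 (adjusted p from 0.111 to 0.246) and without any of 10 single arrays (adjusted p from 0.0549 to 0.143), the 8 of days 10 and 50 and those of cows 1 and 3 at day 30. At day 100 SLC16A13 passed under median scaling (adjusted p = 0.0340), under quantile normalization (adjusted p = 0.0328) and without the day 100 array of cow 2 (adjusted p = 0.0357). Without the day 100 array of cow 4 that difference was 0.83 (adjusted p = 0.163), and under normexp background correction it was 0.95 (adjusted p = 0.0550).

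SLC16A11, chosen after its values were seen, had 1.75, -0.46, 0.30 and 1.79 at day 10, 2.19, 1.38, 1.74 and -0.49 at day 30, 4.71, 4.10, 4.99 and 2.70 at day 50 and 5.17, 0.30, 3.89 and 4.42 at day 100. Both neighbours were lowest of their time in cow 4 at day 30 and in cow 2 at day 100. The SLC16A11 difference at day 50 against day 10 was 3.28 ± 0.83 (SE, adjusted p = 0.0725), and it passed with the term for tissue make-up (2.81, adjusted p = 0.0411). Without the day 100 array of cow 2 SLC16A11 passed at day 50 (adjusted p = 0.0247) and at day 100 (3.52, adjusted p = 0.0160).

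SLC16A1, a widely expressed carrier of lactate and pyruvate, was lower in all 4 cows at day 50, at -3.64, -3.13, -2.93 and -2.62, and at day 100, at -2.23, -2.71, -2.71 and -3.21, against -2.14, -0.74, -0.54 and -1.40 at day 10. These values are of the representative probe, by which neither later day overlapped day 10. At day 100 another tested probe of SLC16A1 had 1 cow higher and 3 lower than at day 10. By that probe cow 1 was at -1.99 at day 100 and at -2.94 at day 10, so those days overlapped. By the representative probe the differences were -1.87 ± 0.51 at day 50 (SE, adjusted p = 0.0891) and -1.51 ± 0.51 at day 100 (SE, adjusted p = 0.1001). SLC16A1 passed by it at day 50 when only the 8 arrays of days 10 and 50 were fitted (adjusted p = 0.0471). Without the day 100 array of cow 1 it passed at both days (adjusted p = 0.0497 at day 50 and 0.0475 at day 100). The SLC16A1 probe shown is on the plus strand at chr3:32863928-32863987 and stands for the main lactate carrier of the family.
SLC16A1 probe at 32863928: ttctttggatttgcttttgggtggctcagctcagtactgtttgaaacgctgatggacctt

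SLC16A3, the lactate exporter of glycolytic cells, was at 0.94, -1.59, -0.46 and 0.29 at day 10, -2.72, -0.70, -0.47 and -3.17 at day 30, -1.83, -1.48, -0.82 and -0.45 at day 50 and 2.84, -2.04, 0.08 and -1.91 at day 100. Cow 1 at day 100 was far above the other arrays of that day. The difference at day 100 against day 10 was -0.06 ± 0.98 (SE, adjusted p = 0.979). Basigin (BSG), the chaperone of SLC16A1 and SLC16A3, had a mean of 3.00 at day 50, 2.53 at day 100 and 3.21 at day 10, and its differences from day 10 did not pass (adjusted p = 0.826 at day 50 and 0.323 at day 100).

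SLC16A5, SLC16A7, SLC16A8, SLC16A9, SLC16A10 and SLC16A14 did not pass. The 2 tested probes of SLC16A10, an aromatic amino acid carrier, were above background on 7 and 8 arrays and disagreed, with a correlation of 0.12 over the 16 arrays. At day 50 against day 10 the SLC16A10 difference was -0.10 by the representative probe and -1.47 by the other (adjusted p = 0.930 and 0.295). SLC16A14, an orphan member, was at its lowest in cow 4 at day 30 (-6.55), and its difference at day 30 against day 10 was -1.89 ± 0.66 (SE, adjusted p = 0.241).

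A term for tissue make-up, added to the fit with time and cow after the data were seen, asked which transporters followed the epithelial minus the smooth muscle list level across the arrays. It called 4 of the 52 genes, beside 8.18% of the genes outside both marker lists, a share of the transporters near that background. SLC16A3 rose with the score by 0.51 ± 0.07 on the log2 scale per unit (SE, adjusted p = 0.00412), and SLC15A1 by 0.31 ± 0.06 (SE, adjusted p = 0.0169). Both genes were highest in cows 1 and 4 at day 10 and cow 1 at day 100. Those arrays also had the highest neutrophil list (5.0, 4.72 and 1.47), and the part of neutrophils in these slopes was not tested. SLC7A10, a carrier of small neutral amino acids, fell by 0.37 ± 0.08 (SE, adjusted p = 0.0247) and SLC6A15 by 0.53 ± 0.13 (SE, adjusted p = 0.0318). The slopes of SLC1A1 (0.55 ± 0.17), SLC16A11 (0.32 ± 0.11) and SLC15A2 (0.32 ± 0.22) did not pass (SE, adjusted p = 0.0839, 0.101 and 0.429). The count was from 0 to 2 when a cow was left out, and with single arrays left out it ran from 1 without the day 10 array of cow 4 to 8 without the day 100 array of cow 4. SLC16A3 was called without cow 2, 3 or 4 and not without cow 1.

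Counts of called transporters also turned on both extreme biopsies of day 100. Without the day 100 arrays of cows 1 and 2, 9 transporters were called at day 50 against day 10, beside 4.85% of all genes, and 7 at day 100 against day 10, beside 5.63% of all genes. The genes called at day 50 were SLC1A1, SLC1A4, SLC15A2, SLC16A11, SLC16A13 and SLC38A11, all higher, and SLC1A5, SLC6A15 and SLC43A2, all lower. At day 100 they were the same without SLC16A13 and SLC6A15. This setting was chosen after the data were seen, for the marker lists of those biopsies. Day 100 arrays do not enter the differences of day 50 from day 10. Leaving them out changed the standard errors and adjusted p there, and not the differences, here and for the single genes above.

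Genes that work with the transporters were described from lists chosen with earlier results of these data known. None of the 10 tested partners and chaperones of the transporters passed in any comparison. Of 24 genes of the amino acid response, which the factor ATF4 switches on when amino acids run short, 2 rose at day 50 and 1 at day 100 against day 10. In those comparisons 0.764% and 1.86% of all genes were called higher. PHGDH, the entry enzyme of serine synthesis, rose by 4.66 ± 0.84 at day 50 (SE, adjusted p = 0.0267) and 3.34 ± 0.84 at day 100 (SE, adjusted p = 0.0471), and ALDH18A1, an enzyme of proline synthesis, rose by 1.51 ± 0.32 at day 50 (SE, adjusted p = 0.0431). The list's median difference was -0.26 at day 50, opposite in sign to both genes.

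Of 24 tested genes of amino acid sensing by mTORC1, 1 rose at days 50 and 100, beside 0.764% and 1.86% of all genes called higher. CASTOR1, an arginine sensor, was higher by 1.21 ± 0.24 at day 50 (SE, adjusted p = 0.0362) and 1.07 ± 0.24 at day 100 (SE, adjusted p = 0.0347) than at day 10. Among 30 enzymes of arginine, glutamine, glutamate, tryptophan and creatine metabolism, 2 fell at each later day and none rose. Calls in either direction made up 0.432%, 1.94% and 4.77% of all genes at days 30, 50 and 100. NOS2, which makes nitric oxide from arginine and is induced in inflammatory cells, fell by 2.37 ± 0.36 at day 30 (SE, adjusted p = 0.0222), 2.79 ± 0.36 at day 50 (SE, adjusted p = 0.00841) and 3.36 ± 0.36 at day 100 (SE, adjusted p = 0.00205). ASS1, which rebuilds arginine from citrulline, fell by 2.36 ± 0.52 at day 100 (SE, adjusted p = 0.0310), and AGMAT, which acts on agmatine, fell by 1.54 ± 0.28 at day 30 and 1.80 ± 0.28 at day 50 (SE, adjusted p = 0.0425 and 0.0177). The macrophage markers fell in the same comparisons, and their part in these enzyme levels was not tested.

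None of 12 glutathione genes and none of 21 genes of lactate and pyruvate metabolism passed in any comparison. Of 15 cell surface peptidases, which release amino acids and small peptides for uptake, 1 rose and 1 fell at day 100 against day 10. Calls in either direction made up 4.77% of all genes in that comparison. MEP1B, a meprin subunit, rose by 8.10 ± 1.87 (SE, adjusted p = 0.0360), and DPEP1, a dipeptidase, fell by 4.36 ± 0.90 (SE, adjusted p = 0.0259).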

How the data were processed

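RNA of 16 endometrial biopsies (4 cows, 4 days) was labelled in 1 colour and hybridised to 1 array each. Per the file headers, the deposited processed signal is an intensity on a linear scale, background-subtracted and detrended by Agilent Feature Extraction 11.5.1.1, without scaling between arrays. Version 10.5.1.1 is named in the submitters' processing notes, and why the versions differ was not settled. Other deposited columns hold 0 or 1 as flags of a spot's quality (above background, saturation, uniformity). The authors' value table, on a log2 scale, matched log2 processed signals after subtraction of the array's percentile 75 and centring per probe (r of 0.99998 to 1 across probes, column medians from -0.16 to 0.21), and served as an alternative. No spot was saturated.

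Spots marked nonuniform, 4 to 125 per array, were left out, the percentile 75 of each array was subtracted on the log2 scale, and spots of a probe were averaged. Each of 33182 probes well above background on at least 4 arrays was fitted in R 4.3.3 by limma 3.58.1, with time and cow as terms, 9 residual degrees of freedom, two-sided tests of 6 differences and an F test, Benjamini-Hochberg adjustment over all tested probes and a threshold of 0.05. Log2 differences had a median standard error of 0.36, a precision set by the number of arrays and by the spread of each probe. The biopsies come from the same animals, so cow pairs them by design. Deviations from the time means correlated with a median of 0.12 within a cow (24 pairs) and -0.04 between cows (72 pairs). Centring within a time ties the value between cows to that within cows, so it is no separate baseline. The arrays of a cow also shared a slide, so animal and slide cannot be told apart.

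Gene names are those of the array design, and 6 of the 138 member probes have an accession that leads to another symbol in the reference table of ARS-UCD2.0. Positions are those of the files, on HGSC Btau_3.1. Genes described in full were those that passed, the gene of each of the 9 families with the smallest F test p, and a set of well-known members. The members, the 10 cell type lists and the 7 pathway lists were chosen with earlier results of these data known. Single values of 2 tested members are not reported here. Alternatives changed the background correction, scaling, filter, replicate block, probe choice and tissue term, and left out each cow and each array.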

Additional observations from a re-analysis of the deposited data

Results flagged for a closer look

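In 7 of the 80 groups of 4 values (20 genes at 4 times) 1 cow lay apart from the others by Dixon's test, and chance gives about 1 in 20. Of SLC1A1, cow 2 at day 100 was at -3.06, with the other cows from 3.81 to 4.83, and cow 4 at day 50 was at 1.57, with the others from 3.66 to 3.75. SLC15A2 in cow 4 at day 30 was at -6.56, with the others from -2.97 to -2.26. The epithelial list was lowest of its time in cow 2 at day 100 and in cow 4 at day 30. In cow 4 at day 50 the list was not the lowest, at 0.80 with the other cows from 0.59 to 1.21.

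SLC16A13 in cow 3 at day 10 was at -3.85, with the others from -4.69 to -4.62. SLC6A15 in cow 2 at day 50 was at -3.61, with the others from -7.24 to -6.91. Near background, SLC36A2 in cow 1 at day 30 was at -5.39, with the others from -9.05 to -8.53, and SLC7A8 in cow 1 at day 30 was at -5.92, with the others from -6.29 to -6.23.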

How the results depend on the processing

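Called transporters at day 100 against day 10 numbered 1, and 3 under normexp background correction, 2 under median scaling, 2 under quantile normalization, 4 with the tissue term, 2 with any tested probe and 0 with only the 8 arrays of those days. At day 50 against day 10 they numbered 3, and 5 with the tissue term. The F test called 1, and 2 under normexp, median scaling, the tissue term or any tested probe. Without the replicate block the counts of called transporters stayed within 1.5 times, with SLC6A15 lost at day 50 (adjusted p = 0.0575), while the count that followed the tissue score was 13 against 4. Leaving out 1 cow or 1 array gave from 0 to 6 calls in the day 50 comparison, from 0 to 7 in that of day 100, from 0 to 1 in that of day 30, from 0 to 5 in the F test and from 0 to 8 for the tissue score. The highest counts against day 10 and in the F test came without the day 100 array of cow 1 or 2, and that for the tissue score without the day 100 array of cow 4. Without the day 100 arrays of both cows 1 and 2, a setting chosen after seeing the data, the counts were 9 at day 50, 7 at day 100 and 4 in the F test. The difference of SLC6A14 at day 50 against day 10, -1.0, ran from -2.18 without the day 10 array of cow 3 to 0.0085 without cow 4. Of 594 recomputed values of single genes, 543 kept direction and side of the threshold, 37 lost the call, 13 gained it and 1 changed sign. Dim members have only bounds at some days, and the cause of these changes was not tested.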
